A study of Zanthoxylum armatum with 15 samples.

Results

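Zanthoxylum armatum, green Sichuan pepper, is a tree of the citrus family whose fruits are eaten as a numbing, aromatic spice. Among the unigenes assembled from its 5 major organs, 105 of 111318 were counted almost entirely in the fruit libraries, and these fruit-restricted unigenes are described here. They were chosen on the measured values themselves. A member belongs to the assembly cluster named Cluster-12235, which holds 79040 unigenes. Levels are given as CPM, the estimated count scaled to a library total of 1000000. The lowest CPM of a member in the 3 fruit libraries was at least 2 and at least 16 times the highest CPM in the 12 other libraries. The rule also leaves out 7 unigenes by name, of which 6 met both thresholds. The contrast of fruits with the other organs therefore chose the members, and it is given below as a description with no test.

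Fruits were compared with mature leaves, leaf buds, stems and roots of untreated 3-year-old trees of the cultivar Hanyuan putaoqing, which were harvested in the same month, when the fruits had reached full size. Each organ had 3 biological replicates, and material of 3 plants was mixed in each replicate. Whole organs were sampled, so a fruit library pools all of its tissues, and fewer cells of a type cannot be told apart from less RNA per cell. Library totals ranged between 18802274 and 24081708 estimated counts. As a check of the organ labels, the FPKM (the count scaled to unigene length and to the library) of 19 unigenes listed as photosynthesis antenna proteins, which collect light in green tissue, summed to 9758 to 11372 in the fruit libraries. The sums were 26258 to 26800 in mature leaves, 6347 to 8821 in leaf buds, 9416 to 10210 in stems and 16.3 to 25.4 in roots.

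A fleshy or aromatic fruit draws on several branches of metabolism. Terpene synthases turn prenyl diphosphates, which come partly from the plastidial methylerythritol phosphate pathway, into volatile terpenes. Phenylpropanoid enzymes make lignin precursors and phenolic esters, and glycosidases, invertases and pectinesterases act on sugar conjugates, sucrose and cell walls. Gibberellin dioxygenases set the level of a growth hormone.

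The 105 members together took 3.64%, 2.92% and 3.27% of all counts in fruit libraries 1, 2 and 3. Their share was between 0.0083% and 0.0252% in the 12 other libraries, and no other library came near any fruit library. By organ, the share averaged 3.28 ± 0.36% in fruits, 0.0222 ± 0.0026% in leaf buds, 0.0179 ± 0.0010% in stems, 0.0107 ± 0.0003% in roots and 0.0086 ± 0.0002% in mature leaves (SD, n = 3 libraries each). When the rule was applied to each other organ in turn, it found 92 unigenes for mature leaves, 67 for leaf buds, 17 for stems and 300 for roots. Outside Cluster-12235, 11 further unigenes met the fruit thresholds.

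Levels of the members in fruits spanned 3 orders of magnitude. The mean fruit CPM was lowest at 2.71 and highest at 5142, with a median of 44.7 and quartiles of 14.9 and 174. In all, 9 members exceeded 1000 CPM, 39 exceeded 100 CPM and 19 stayed under 10 CPM. The 10 most abundant members held 64.6% of the summed fruit CPM of the set, and the most abundant alone held 15.7%.

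**Figure D1:**
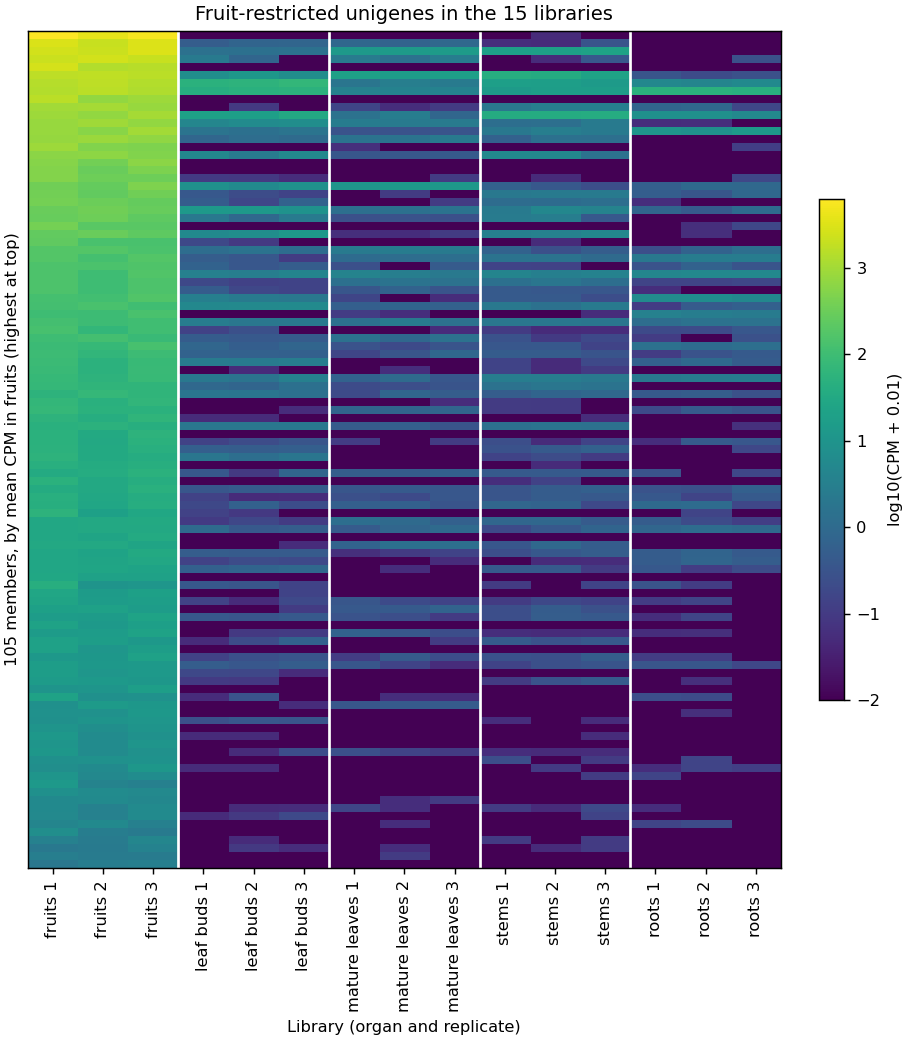
Each row is 1 of the 105 members, ordered by mean CPM in fruits, and each column is 1 of the 15 libraries, grouped by organ. Colour gives log10(CPM + 0.01). The 3 fruit columns are bright in every row, while the other 12 are mostly dark, with scattered faint rows in leaf buds and stems among the abundant members.

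Of the 105 members, 13 carry an enzyme annotation in the study's tables of pathways and gene names. The other 92 are named there by no enzyme in the copies held and are known here by their identifiers alone. Of the 10 highest in fruits, 1 member was annotated, which is near the share of 13 among all 105.

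The terpene branch held that member. Cluster-12235.42686 is assigned to germacrene D synthase and matched to Arabidopsis TPS21, a sesquiterpene synthase that makes caryophyllene and humulene in Arabidopsis flowers. It had 1367, 1588 and 1311 CPM in the fruit libraries. Roots followed at 50.9, 51.8 and 45.2 CPM and leaf buds at 42.1, 48.5 and 53.6 CPM. Stems had 14.6, 17.3 and 17.1 CPM, and mature leaves had 3.55, 3.78 and 3.64 CPM. No library of another organ came near a fruit library, yet the unigene was clearly present in all of them. It was the largest source of member counts in roots and ranked just below the leading member in leaf buds. Cluster-12235.38538 encodes a 1-deoxy-D-xylulose 5-phosphate synthase (DXS), the entry enzyme of the methylerythritol phosphate pathway. It had 56.6, 75.0 and 61.5 CPM in the fruit libraries, and the other libraries lay between 0.20 and 1.89 CPM, with leaf buds uppermost. Cluster-12235.42859, assigned to phytoene synthase, which commits geranylgeranyl diphosphate to carotenoids, had 114, 136 and 107 CPM in fruits. Its means elsewhere were 5.53 CPM in leaf buds, 1.93 in stems, 0.64 in mature leaves and 0.38 in roots.

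Both annotated gibberellin enzymes were present, 1 on each side of the active hormone. Cluster-12235.19063 is assigned to gibberellin 2-beta-dioxygenase, which inactivates gibberellins. It had 91.4, 52.6 and 82.7 CPM in fruits, 2.53, 2.41 and 2.80 CPM in leaf buds, and 0 counts in all 3 mature leaf libraries. Cluster-12235.12842 is assigned to gibberellin 3-beta-dioxygenase, which completes active gibberellins. It was rarer, with 5.53, 3.57 and 5.84 CPM in fruits and 14 counts over the 12 other libraries together.

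Phenylpropanoid enzymes and an aromatic amino acid decarboxylase came next. Cluster-12235.44259, assigned to cinnamyl alcohol dehydrogenase, which makes monolignols, had 374, 256 and 350 CPM in the fruit libraries. In stems it had 2.06, 2.36 and 2.51 CPM and in roots 0.53, 0.35 and 0.85 CPM. Leaf buds had 0.39, 0.21 and 0.14 CPM, and mature leaves 2 counts in 1 library. For this unigene stems were the highest of the other organs, whereas Cluster-12235.62462 of the same enzyme, which is not a member, was lowest in stems, with a mean of 86.4 CPM in fruits, 11.0 in stems and 16.8 to 21.5 in the remaining organs. Cluster-12235.41896 is a shikimate O-hydroxycinnamoyltransferase (HCT), which forms hydroxycinnamoyl esters. It had 261, 300 and 235 CPM in fruits, 5.62, 7.06 and 12.4 CPM in leaf buds, and 3.14, 3.47 and 4.97 CPM in stems. Mature leaves and roots were near 0, with 4 counts and 1 count over 3 libraries. Cluster-12235.53539 is assigned to aromatic amino acid decarboxylases and matched to the Arabidopsis aromatic aldehyde synthase AAS, which makes phenylacetaldehyde in vitro. It had 47.6, 53.2 and 43.8 CPM in fruits, 2.02, 1.95 and 2.11 CPM in leaf buds and 1.41, 1.58 and 1.43 CPM in stems. Roots had 1 count over 3 libraries.

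Among the sugar and wall enzymes, 3 members are assigned to beta-glucosidase, which frees aglycones from glucosides. Cluster-12235.35927 had 152, 97.9 and 171 CPM in fruits and a nearly level background of 2.18 to 5.05 CPM in the 12 other libraries. Cluster-12235.43552 had 134, 71.3 and 105 CPM in fruits and at most 0.37 CPM elsewhere. Cluster-12235.43554 had 27.5, 15.1 and 19.8 CPM in fruits, against 3 counts in a single leaf bud library. Fruit library 2 was the lowest for all 3, but their levels outside fruits differed widely. Cluster-12235.42845, an invertase that splits sucrose, had 29.6, 32.2 and 31.2 CPM in fruits and 0.19 to 1.09 CPM elsewhere. It was the most even member, with a coefficient of variation of 4.16% over the fruit libraries. Cluster-12235.15487, a pectinesterase that demethylates cell wall pectin, was the least even, with 44.6, 10.3 and 11.0 CPM and a coefficient of variation of 89.1%. Its mean in fruits rests on library 1.

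**Figure D2:**
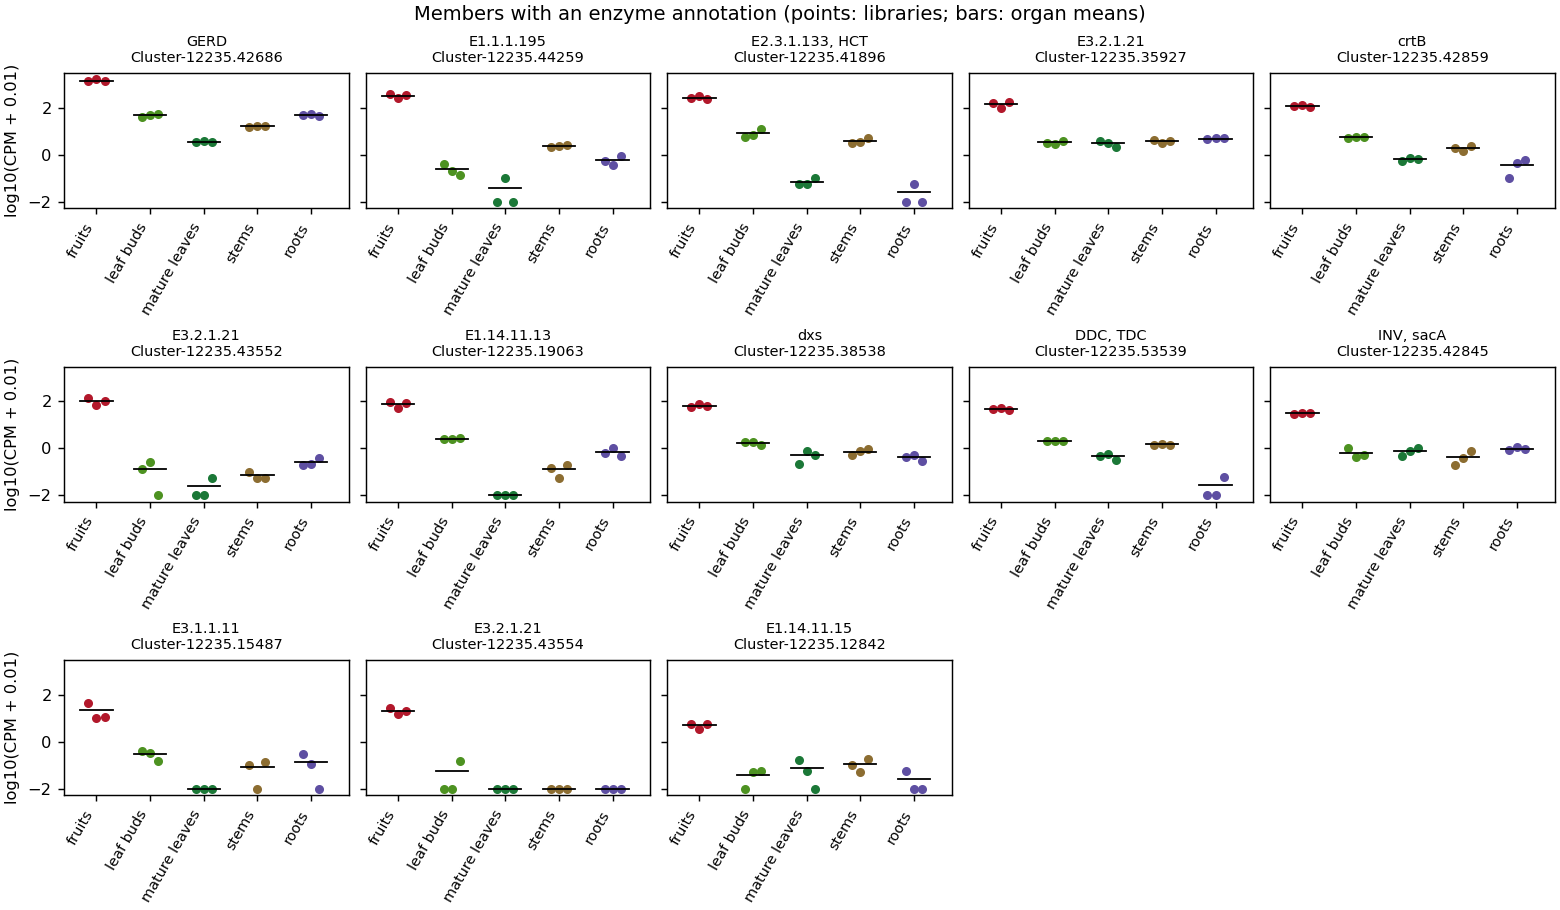
Each panel is 1 of the 13 annotated members, with log10(CPM + 0.01) of the 15 libraries by organ, fruits at the left, titled by the enzyme name or number of its annotation. Points are libraries and bars are organ means, and points on the lowest line are libraries with 0 counts. Fruit points stand above all others in each panel, as the rule requires, while the order of the other 4 organs differs between panels.

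For 3 of these members the study designed primers for quantitative real-time PCR, which fix the stretch of the transcript that such an assay reads. They are printed because they are the only nucleotide sequence of a member in the sources used here, written 5′ to 3′ in lower case.
HCT, Cluster-12235.41896, forward: ctcccaagggttcagacgaca
HCT, Cluster-12235.41896, reverse: gttccatcctcttacgcaaat
DXS, Cluster-12235.38538, forward: tggctctttcttcttccttttcc
DXS, Cluster-12235.38538, reverse: caccatcatattggcttcctcac
AAS, Cluster-12235.53539, forward: tttgaggcactggttgcagaaga
AAS, Cluster-12235.53539, reverse: ttcacagcaccaagcagtttacg
The primers are 21 or 23 bases long. GC content was highest in the HCT forward primer at 57.1% and lowest in its reverse primer at 42.9%.

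Other unigenes that the study's tables assign to the same enzymes were mostly not fruit-restricted. The family counts that follow include the members themselves, which the rule places highest in fruits. HCT had 13 unigenes, 1 of them a member. Of the 13, 3 had their highest mean in fruits, 4 in leaf buds, 4 in roots and 2 in mature leaves. Cluster-12235.55290 was the most abundant HCT, with a mean of 171 CPM in fruits, 567 in leaf buds, 368 in stems, 43.5 in mature leaves and 5.02 in roots. The germacrene D synthase group had 8 unigenes, of which 6 were highest in fruits. Its Cluster-12235.43013 averaged 497 CPM in fruits but also 166 CPM in mature leaves, and Cluster-12235.40863 averaged 48.4 CPM in fruits and 54.8 CPM in leaf buds. DXS had 9 unigenes, of which 8 were highest in fruits and 2 are among those left out by name. Its Cluster-12235.46026 averaged 201 CPM in fruits and 20.8 to 38.4 CPM in the other organs, and Cluster-12235.68202 averaged 8.97 CPM in fruits and 65.8 CPM in leaf buds.

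Of the smaller families, the decarboxylases and pectinesterases were spread over organs. The decarboxylase group had 5 unigenes, of which 3 were highest in fruits, 1 of them left out by name, while Cluster-12235.9280 averaged 1.15 CPM in fruits and 107 CPM in roots. Pectinesterase had 5, and Cluster-12235.20224 averaged 2.43 CPM in fruits, 100.3 CPM in mature leaves and 22.9 CPM in stems. All 5 beta-glucosidases, 3 cinnamyl alcohol dehydrogenases, 3 phytoene synthases and 2 gibberellin 2-beta-dioxygenases were highest in fruits. Among these, 3 beta-glucosidases and 1 unigene of each other enzyme are members and were bound to be. Invertase and gibberellin 3-beta-dioxygenase had the member alone. Most of these tables list unigenes that the study picked for being high in an organ of these same libraries, so their organ order is not independent evidence. Only unigenes in readable rows of those tables were counted, so these numbers are not the sizes of the gene families in the species.

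Of 7 whole pathway lists, the decarboxylase member stands in 5, those for indole alkaloid, betalain, anthocyanin, flavone and flavonol, and isoflavonoid biosynthesis, which held 14, 19, 15, 21 and 21 unigenes. The lists for monoterpenoid (11 unigenes) and brassinosteroid biosynthesis (17) held no member, although 2 monoterpenoid unigenes are among those left out by name. The study's own lists of fruit unigenes, chosen on these libraries, held 3 members among 47 for terpenoids, where the table read here is shorter than the count in the study's text, and none among 20 for fatty acid synthesis and 14 for fatty acid degradation. Its readable rows of fruit-specific unigenes held 12 members among 41, and those of unigenes higher in fruits 11 among 132.

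Of the 10 most abundant members, all but Cluster-12235.42686 lack an annotation. Cluster-12235.42671 had 6359, 3869 and 5197 CPM in the fruit libraries and a single count, in stem library 2, over all 12 others. Cluster-12235.42861 had 2922, 2112 and 3103 CPM in fruits, at most 0.91 CPM elsewhere and 0 counts in roots. Cluster-12235.42379 had 2550, 2149 and 3219 CPM in fruits, 19.2, 19.4 and 22.2 CPM in stems, 13.4, 14.7 and 15.3 CPM in mature leaves and none in roots. These unigenes thus ranged between virtual absence and low but steady presence in the organs outside fruits.

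Cluster-12235.42729 had 2221, 2498 and 2039 CPM in fruits and at most 2.82 CPM elsewhere. Its leaf bud values of 2.32, 0.79 and 0 CPM were uneven. Cluster-12235.40279 had 1656, 1733 and 1591 CPM in fruits, 41.4, 36.8 and 21.7 CPM in stems and 16.1 to 19.4 CPM in mature leaves. It was among the most even members in fruits, with a coefficient of variation of 4.30%. Cluster-12235.42649 had 1419, 1653 and 1350 CPM in fruits and 49.9, 56.9 and 69.8 CPM in leaf buds, the highest level of any member in leaf buds. Cluster-12235.43649 had 971, 1059 and 826 CPM in fruits and 2.01, 3.08 and 3.22 CPM in stems, with 0.08 CPM or less in each leaf bud library.

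In all, 16 members had 0 counts in every one of the 12 other libraries, and 24 had a count in all 12. The 5 most abundant of the 16 were Cluster-12235.42593, Cluster-12235.42778, Cluster-12235.40583, Cluster-12235.38298 and Cluster-12235.43779. Cluster-12235.42593 had 2643, 1391 and 1512 CPM in fruits and was at least 159912-fold higher there than the limit of 3 counts over the 12 libraries, 0.0116 CPM. Cluster-12235.42778 had 1589, 743 and 877 CPM and was at least 92504-fold higher. Cluster-12235.40583 had 563, 377 and 625 CPM and was at least 45139.6-fold higher. Cluster-12235.38298 had 538, 296 and 455 CPM and was at least 37159.6-fold higher. These 4 left no count in 12 libraries of other organs. Cluster-12235.43779 had 50.2, 33.7 and 57.4 CPM and was at least 4073-fold higher. The faintest of the 16, Cluster-12235.39832, had 2.03, 2.85 and 3.24 CPM, a bound of 234-fold. Intervals and limits cover counting error only.

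Just inside the ratio of 16 stood Cluster-12235.31378 at 16.6, Cluster-12235.52727 at 16.9 and Cluster-12235.12881 at 17.1. The highest library outside fruits was roots 2, leaf buds 3 and roots 2 in that order. Just outside stood Cluster-12235.39083 at 15.7, Cluster-12235.44873 at 15.6 and Cluster-12235.43239 at 15.3. The lowest fruit CPM was 109, 56.5 and 3.38 for the members inside and 4.60, 7.81 and 172 for the unigenes outside, so both sides held abundant and rare unigenes. Among the 89 members with a count elsewhere, the ratio had a median of 38.5, it was under 32 for 40 members and over 100 for 24. No gap in the ratios marked off the members from the unigenes below.

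**Figure D3:**
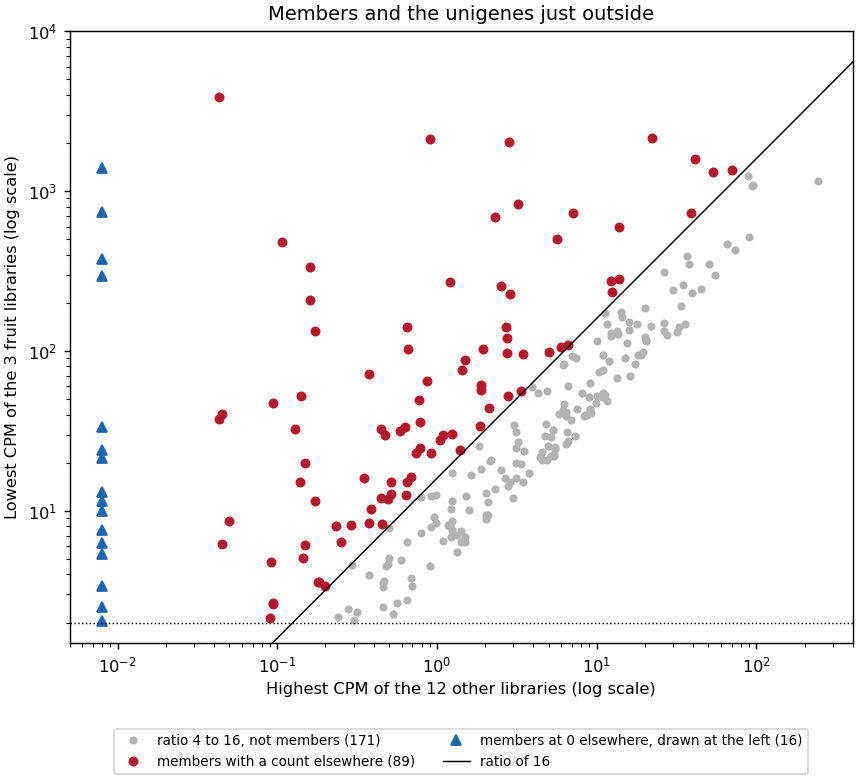
The vertical axis is the lowest CPM of the 3 fruit libraries and the horizontal axis the highest CPM of the 12 others, both on log scales. Red points are the 89 members with a count elsewhere, blue triangles the 16 members at 0 elsewhere, grey points unigenes with a ratio of 4 to 16, and the dotted line the minimum of 2 CPM. Grey points run up to the line of ratio 16 with no gap, while the triangles cover nearly the whole range of fruit levels.

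The FPKM and the count of a unigene give the effective length that the counting used. It had a median of 1025 bases over the 105 members (quartiles 620 and 1526) and of 1143 bases over the 40009 unigenes of Cluster-12235 with enough counts to give one. Over the 27955 such unigenes that met the fruit minimum it was 1368 bases. The members ran between 47 and 3113 bases. The effective length was 112 bases for Cluster-12235.42671, 211 for Cluster-12235.42593 and 47 for Cluster-12235.42778, so their mean FPKM in fruits, at 46589, 8783 and 22673, was large relative to their CPM. A count that is not whole can arise where fragments are divided between similar unigenes. At least 1 fruit library had one for 49 of 105 members (46.7%), against 49.9% of the cluster's unigenes that met the fruit minimum. This included Cluster-12235.42671, Cluster-12235.42593, Cluster-12235.42649 and Cluster-12235.38538, whose split between similar unigenes is uncertain.

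The fruit libraries did not agree on the level of the members as closely as they did on other unigenes. The coefficient of variation over the 3 fruit libraries had a median of 21.7% over the members (quartiles 14.6% and 27.0%), against 9.88% (5.98% and 15.5%) over the 27977 unigenes of the cluster that met the fruit minimum. Library 2 was the lowest for 62 members (59.0%), against 28.5% of those 27977 unigenes, and the highest for 21 of the 105, against 30.6%. This feature was noticed in the data and is given as a description with no test. The log2 ratio of library 2 to the mean of libraries 1 and 3 had a median of -0.41 and quartiles of -0.61 and 0.01 over the members, and a median of 0.01 and quartiles of -0.11 and 0.13 over the 27977. Each fruit library mixed 3 plants, and the labels give no other difference between them.

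The members fell on both sides of 0 in this ratio. The 21 that were highest in library 2 had close ratios, with a median log2 of -0.20 for library 1 over library 2 and -0.30 for library 3 over library 2. They included 5 of the 10 most abundant members, among them Cluster-12235.42729 and Cluster-12235.42649. They also included 6 annotated members: germacrene D synthase, HCT, phytoene synthase, DXS, the decarboxylase and invertase. For the 62 that were lowest in library 2 the medians were 0.58 for library 1 and 0.54 for library 3 over library 2. These 62 included the other 5 of the 10 most abundant members. The other 7 annotated members were also among the 62: cinnamyl alcohol dehydrogenase, the 3 beta-glucosidases, both gibberellin dioxygenases and pectinesterase. The place of libraries 1 and 3 differed within both groups: after library 2, library 3 came next for DXS and invertase and library 1 for the other 4.

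None of the 16 members at 0 elsewhere was highest in library 2, 10 were lowest there, and 11 were highest in library 1. Counts in the 12 other libraries had a median of 268 over the members highest in library 2 and 31 over those lowest in it. In the study's terpenoid list, which was chosen on these libraries, 34 of the 45 unigenes that met the fruit minimum were highest in library 2. In its lists for fatty acid synthesis and degradation these were 10 of 19 and 9 of 13. Besides Cluster-12235.15487, 1 member differed over 3-fold between fruit libraries: Cluster-12235.44042, at 0 elsewhere, had 13.5, 3.98 and 3.39 CPM. For both, library 1 was far above the other fruit libraries.

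**Figure D4:**
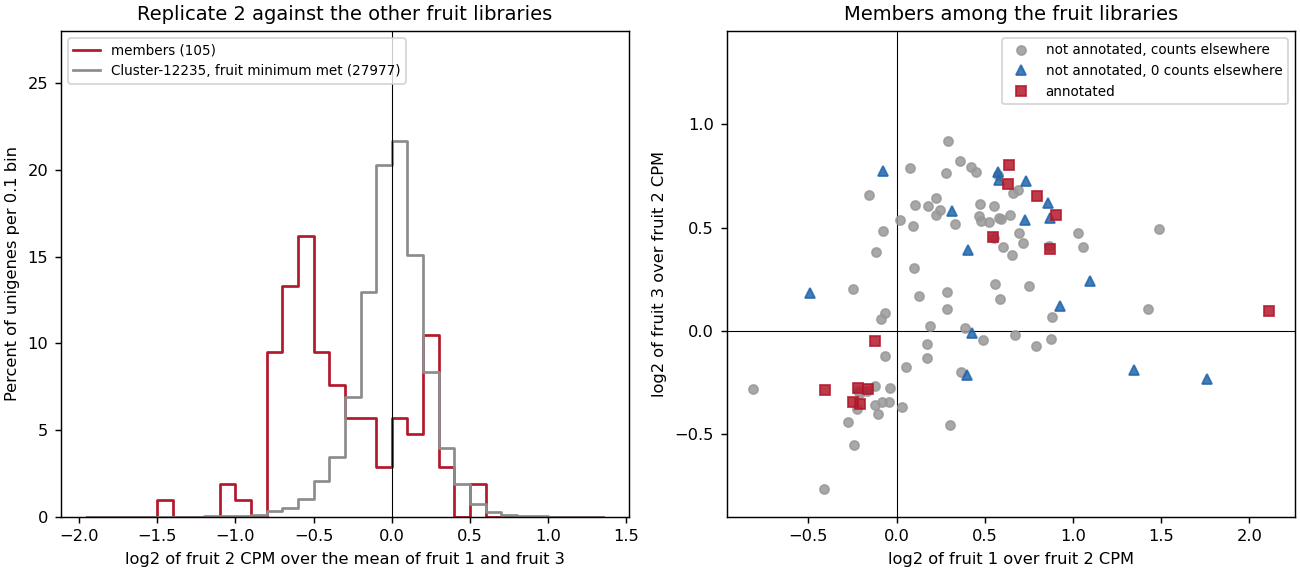
The left panel gives the percent of unigenes in each 0.1 bin of the log2 ratio of fruit library 2 to the mean of fruit libraries 1 and 3, for the 105 members and for the 27977 unigenes of the cluster that met the fruit minimum. The right panel places each member by its log2 ratios of fruit libraries 1 and 3 to library 2. Members form a broad group with library 2 lowest and a smaller, tight group with library 2 highest, while the larger set peaks near 0.

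Outside fruits, the remaining level was highest in leaf buds for 26 members, in stems for 25, in roots for 20 and in mature leaves for 18, and 16 had none. As shares of the 89 members with a count these are 29.2%, 28.1%, 22.5% and 20.2%. Over the 27961 unigenes of the cluster that met the fruit minimum and had a count elsewhere the shares were 27.9% for leaf buds, 21.9% for stems, 31.8% for roots and 18.5% for mature leaves. Of the 105 members, 25 had at most 3 counts over the 12 libraries, including the 16 with none. For the others of these 25, the highest organ rests on 3 counts or fewer. Roots had 0 counts for 44 members, mature leaves for 38, leaf buds for 29 and stems for 27. A few members made up much of what was left. In leaf buds, Cluster-12235.42649 and Cluster-12235.42686 gave 48.1% of the summed mean CPM of the members, and in roots Cluster-12235.42686 and Cluster-12235.45551 gave 56.5%. In stems, Cluster-12235.43786 led with 37.1, 37.7 and 39.1 CPM, ahead of Cluster-12235.40279.

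The rule set a ceiling on these levels but did not use their order, so differences among the 4 other organs were tested on their 12 libraries alone, with edgeR's quasi-likelihood test over all unigenes and Benjamini-Hochberg adjustment. Of the members, 47 passed the filter on low counts and 58 did not, and those 58 had a median of 5 counts over the 12 libraries. Those 47 are the better-counted members, with a median fruit CPM of 133 against 17.5 for the rest, and 5 of them were over the filter level of 0.46 CPM in a single organ only. Passing through 1 or a few organs favours members that differ among organs, though it does not force a difference. The counts that follow therefore describe these 47 and say nothing of all 105.

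Any difference among the 4 organs was called at an adjusted p under 0.05 for 39 of the 47 members (83.0%), against 77.5% of the 56631 unigenes tested. Of the 14 members over the filter level in all 4 organs, 10 differed. No matching share was taken over all unigenes above that level in all 4 organs. The step between 77.5% and 83.0% is therefore not read as a trait of the members. A pairwise call also needed a log2 fold change beyond 1. In leaf buds relative to mature leaves, 22 of the 47 members were higher (46.8%) against a background of 16.8%, and 11 were lower (23.4%) against 16.9%. The median log2 fold change was 0.73 over the 47 members and -0.0035 over all unigenes. With members at 0 in 1 of the organs set at their bound, it was 0.82.

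In leaf buds relative to stems, 14 members were higher (29.8%) against 10.6% of all unigenes, and 9 were lower (19.1%) against 8.01%. This balance turned when a log2 change beyond 2 was required, with 6 members higher and 8 lower, against 5.69% and 3.31% of all unigenes. Without stem library 2, 9 were higher and 8 lower. The median log2 fold change was 0.17 over the members, or 0.22 with bounds, and 0.08 over all unigenes. In leaf buds relative to roots, 23 members were higher (48.9%) against 22.8%, and 7 were lower (14.9%) against 18.7%. The median log2 fold change was 1.61 over the members, or 1.49 with bounds, and 0.05 over all unigenes. The 3 comparisons share the leaf bud libraries and are not independent of each other. Scaling moved the centre of the first: with library totals alone, the median over all unigenes in leaf buds relative to mature leaves was 0.46, and 24 members were higher and 8 lower.

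Of the annotated members, 9 could be tested. Germacrene D synthase was higher in leaf buds than in mature leaves by 3.23 ± 0.13 (log2 fold change ± SE, adjusted p = 7.87e-13, edgeR) and than in stems by 1.47 ± 0.11 (adjusted p = 1.55e-08). Between leaf buds and roots its difference was -0.08 ± 0.10 (adjusted p = 0.535). HCT was higher in leaf buds than in mature leaves by 6.46 ± 0.49 (adjusted p = 4.55e-09). It was also higher in leaf buds than in stems, by 1.02 ± 0.27 (adjusted p = 0.00755), which is barely past the fold threshold. Against the single count in roots its leaf bud level stood at a ratio of 479 (exact Poisson 95% interval 86.1 to 18938).

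Phytoene synthase was higher in leaf buds than in each of mature leaves, stems and roots, with log2 fold changes of 2.60 ± 0.34, 1.43 ± 0.30 and 3.83 ± 0.37 (adjusted p = 4.42e-06, 0.00105 and 1.01e-07 by edgeR). DXS was too, with 1.27 ± 0.43, 1.16 ± 0.41 and 2.04 ± 0.44 (adjusted p = 0.019, 0.034 and 0.000691 by edgeR). The decarboxylase was higher in leaf buds than in mature leaves by 1.70 ± 0.36 (adjusted p = 0.000751, edgeR), while leaf buds and stems did not differ past the threshold (0.37 ± 0.32, adjusted p = 0.406). Cinnamyl alcohol dehydrogenase went the other way relative to stems: it was lower in leaf buds, with a log2 fold change of -3.29 ± 0.50 (adjusted p = 6.07e-05, edgeR). Relative to mature leaves, with their 2 counts, it was called higher in leaf buds at an adjusted p of 0.0454. The beta-glucosidase Cluster-12235.35927 and the invertase were called in none of the 3 comparisons, with log2 fold changes between -0.69 and 0.50.

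Gibberellin 2-beta-dioxygenase stood at the top of the fitted fold changes in leaf buds relative to mature leaves and relative to stems. With 178 counts in leaf buds and 0 in mature leaves, the leaf bud level was higher by at least 38.8-fold, relative to a limit of 3 counts over the 3 mature leaf libraries. Relative to stems, with 8 counts, the log2 fold change was 4.27 ± 0.48 (adjusted p = 4.71e-06, edgeR), and relative to roots it was 1.84 ± 0.38 (adjusted p = 0.000639). Leaf buds thus carried more of this unigene's transcript than the other vegetative organs did. Cluster-23317.0 of the same enzyme, not a member, averaged 1.38 CPM in leaf buds, 1.49 in stems, 0.93 in mature leaves and 0.17 in roots.

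Unannotated members at the ends of each comparison had sharply different organ patterns. Cluster-12235.50791 had 1.85, 1.25 and 1.79 CPM in leaf buds and 0 counts in mature leaves, at least 24.4-fold higher in leaf buds. It passed the low-count filter through leaf buds alone, so the filter favoured a difference among its organs. Cluster-12235.42819 had 8.11, 5.77 and 8.58 CPM in leaf buds and 0.61, 0.38 and 0.24 CPM in stems, a log2 fold change of 4.10 ± 0.28 (adjusted p = 4.30e-09, edgeR). Cluster-12235.42624 had 5.19, 2.53 and 5.47 CPM in leaf buds and 0 counts in roots, at least 84.3-fold higher in leaf buds. More than 1 organ was low or empty for each of these. Cluster-12235.50791 also had 0 counts in each root library and only 3, 5 and 2 counts in stems. Cluster-12235.42819 was low in roots too, with 11.9, 19.0 and 17.0 counts. Cluster-12235.42624 was low in mature leaves, with 7, 8 and 9.53 counts.

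In the other direction, Cluster-12235.42363 had 0 counts in leaf buds and 3.45, 2.87 and 2.61 CPM in roots, at least 71.1-fold lower in leaf buds. It passed the low-count filter through roots alone, so the filter favoured a difference among its organs. Cluster-12235.44767 had 1 count in leaf buds, 73 in mature leaves and 40 in stems, and Cluster-12235.40797 had 1 count in leaf buds and 48 in mature leaves. The latter passed the filter through mature leaves alone, so the filter favoured a difference there too. Cluster-12235.43649 had 2 counts in leaf buds, 187 in stems and 35 in roots. The adjusted p values by edgeR were 9.28e-06 for Cluster-12235.44767 relative to mature leaves and 2.03e-06 for Cluster-12235.43649 relative to stems. Leaf buds were near-empty for these members but were not alone in that. Cluster-12235.44767 had 0 counts in each root library, and Cluster-12235.40797 had 2, 2 and 0 counts in stems. Cluster-12235.43649 had 3, 1 and 2 counts in mature leaves. Cluster-12235.42363 had 2, 1 and 0 counts in mature leaves and 0, 0 and 1 in stems. The counts of each recurred in every library of the other organs given above for it.

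**Figure D5:**
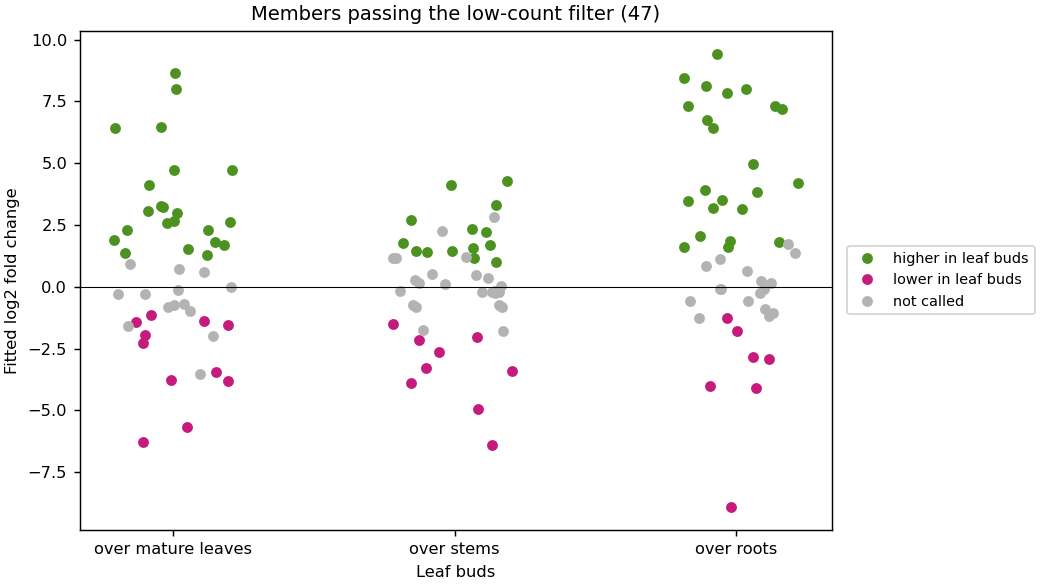
Each point is 1 of the 47 members that passed the low-count filter, and the vertical axis is its fitted log2 fold change in leaf buds over mature leaves, stems or roots. Green points were called higher in leaf buds (22, 14 and 23 members), pink points lower (11, 9 and 7) and grey points were not called. Fitted values of members with 0 counts in 1 organ depend on the prior count and are not measured folds.

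Unigenes of the pathway lists were counted in the same fits and are given in the order mature leaves, stems and roots. Over all unigenes tested, 16.8%, 10.6% and 22.8% were higher in leaf buds and 16.9%, 8.01% and 18.7% were lower. Of the brassinosteroid list, 15 unigenes were tested, and 8 were higher in leaf buds than in mature leaves, 3 than in stems and 10 than in roots (53.3%, 20% and 66.7%), while 2, 0 and 0 were lower. Of the monoterpenoid list, 10 were tested, with 3, 1 and 2 higher in leaf buds (30%, 10% and 20%) and 4, 1 and 0 lower (40%, 10% and 0%). The other 5 lists have 14 unigenes in common, which are the whole indole alkaloid list, so their counts largely repeat each other. For indole alkaloids, 10 were tested, with 1, 1 and 4 higher (10%, 10% and 40%) and 6, 4 and 5 lower (60%, 40% and 50%). The anthocyanin list adds 1 unigene to these 14, and its counts were 2, 2 and 5 higher and 6, 4 and 5 lower of 11 tested. The betalain list adds 5, with 2, 2 and 5 higher and 6, 4 and 8 lower of 15 tested. The flavone and flavonol list adds 7, with 3, 2 and 7 higher and 11, 5 and 9 lower of 17 tested. The isoflavonoid list also adds 7, with 2, 1 and 4 higher and 8, 6 and 8 lower of 15 tested. The decarboxylase member, which stands in all 5, was among the higher unigenes relative to mature leaves and to roots.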

How the data were processed

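RNA of 5 organs, with 3 replicates each, was sequenced on an Illumina platform. The authors removed adapters and low-quality reads, assembled all libraries with Trinity and deposited, for each library, an estimated count and an FPKM per unigene. The submitters' processing notes name CASAVA 1.8. The aligner and counter are not given in the sources used here. Stem libraries carry another abbreviation inside the tables and were assigned by their labels. Estimated counts were expressed as CPM of the library total to find members, and rounded for edgeR 4.0.16 in R 4.3.3 (TMM, filterByExpr defaults, quasi-likelihood F test, Benjamini-Hochberg over all unigenes tested). DESeq2 1.42.0 served as an alternative. The tests were tried on simulated data. Fits used the 12 libraries of the 4 other organs. Genes at 0 were given a limit of 3 counts, and intervals had a confidence level of 0.95. Deposited FPKM served for effective lengths and the organ check. Members, lists and tests were chosen with earlier results of these data known. Unigenes were named where the study's tables name them, or were the 10 most abundant members, the 5 most abundant at 0 elsewhere, the 3 nearest the ratio on each side, the 2 most changed each way per comparison, or of a member's enzyme family. The few others were chosen after their values were seen. Replicates are separate mixes of plants.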

Additional observations from a re-analysis of the deposited data

How the results depend on the processing

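The count of 105 members became 163 with a ratio of 8 and 65 with a ratio of 32. Other scalings, units, minimums, organ means and identifiers gave 95 to 139. Leaving out 1 library gave 105 to 114. Without a library the rule can only loosen, so all of the 105 were bound to stay. TMM and DESeq2 scaling kept 104. In the pairwise comparisons, members called in leaf buds relative to stems numbered 14 rather than 23 when a log2 change beyond 2 was required. Leaving out 1 library gave 30 to 34 calls relative to mature leaves, 17 to 25 relative to stems and 29 to 33 relative to roots, and 40 to 42 members differing among the 4 organs. By direction, members lower in leaf buds than in mature leaves numbered 17 with all 15 libraries in the fit and 6 with a log2 change beyond 2, rather than 11, and members higher in leaf buds than in stems numbered 6 with a log2 change beyond 2 and 9 without stem library 2, rather than 14. The other alternatives for calls moved no total or direction by over 1.5 times. The labels do not say whether libraries with the same replicate number share plants. The correlation of deviations was -0.198 to 0.095 over 30 same-numbered pairs of libraries and -0.217 to 0.282 over 60 different-numbered pairs. These values cannot tell whether plants were shared, so fits with and without a replicate block are given. With the replicate block, 38 members differed among organs and 31, 21 and 30 were called relative to mature leaves, stems and roots. Without scaling factors, chosen as an alternative after seeing the data, 14910 unigenes were higher and 6552 lower in leaf buds relative to mature leaves, against 9512 and 9575 with TMM. Members lowest in fruit library 2 numbered 62 with TMM and 63 with DESeq2 size factors. Over the 27977 unigenes that met the fruit minimum, the share lowest there rose from 28.5% to 30.7% with TMM and 34.7% with DESeq2 size factors. Members with few counts outside fruits cannot be ordered among organs at this depth.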
